A study of Mus musculus with 24 samples.

Results

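The microRNA miR-33, its host gene and the cholesterol exporters it is known to repress were followed in the livers of mice on a high-fat diet, with and without a herbal formula. The 5 members, taken by name from the deposited tables, were miR-33-5p, miR-33-3p, Srebf2, Abca1 and Abcg1, out of 19605 entries (18314 genes and 1291 miRNAs). Liver RNA of 12 wild-type male C57BL/6 mice was sequenced both as long RNA, with ribosomal RNA removed, and as small RNA, which gave 24 libraries. HFD plus HQHF mice were fed the high-fat diet and, after 12 weeks of it, were given HQHF by gavage (Huatanqushihuoxue Formula, a herbal preparation). HFD mice had the same diet alone, and control mice ate a normal diet. Each group had 4 mice here, out of 9 per group in the study, and the labels give no age for these mice and do not say which of the study's doses of HQHF they received.

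Control 2 and HFD plus HQHF 3 were left out of the comparisons, because their libraries went against the liver label in both assays. A list of 10 hepatocyte genes took 5.86 to 12.9% of long RNA counts in the other 10 mice, against 0.857% in control 2 and 0.0423% in HFD plus HQHF 3, where Tat and Cps1 had no read. Hepatocyte miRNAs took 37.2 to 60.4% of small RNA counts in those 10 mice, against 0.0838% in control 2 and 0.142% in HFD plus HQHF 3. Adipocyte genes reached 1.30% in control 2 and 0.993% in HFD plus HQHF 3. Elsewhere they took 0.0231% in HFD 3 and at most 0.00118% in the remaining mice. HFD 3 also had the lowest hepatocyte share of the 10, 5.86%. Pancreatic acinar genes took 0.167% in control 1 and at most 0.00219% in any other mouse. HFD 3 and control 1 were kept. The comparisons thus used 3 HFD plus HQHF mice, 4 HFD mice and 3 control mice, and values with all 12 mice are given for the members, the arm shares, the gene lists and the macrophage markers. Long RNA libraries held 33380925 to 46454404 counts in total, and small RNA libraries 8139111 to 12813806.

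Srebf2 encodes SREBP-2, the transcription factor that turns on cholesterol synthesis and uptake when sterols are scarce. In mice miR-33 is made from an intron of Srebf2 and represses ABCA1 and ABCG1, which move cholesterol out of cells to lipid-poor apolipoprotein A-I and to HDL particles. Liver X receptors (LXR) turn on both exporters when sterols are plentiful. The liver is a main source of circulating HDL through ABCA1, while ABCG1 is also prominent in macrophages.

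The sequences of the miRNA are shown because its arms carry different seeds, the bases that pair with targets. They come from RefSeq with the build GRCm38.p6. In the mature arms the capitals mark bases 2 to 8, and in the hairpin they mark both mature arms.
miR-33-5p, chr15:82198127-82198147, plus strand: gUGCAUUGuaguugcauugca
miR-33-3p, chr15:82198167-82198188, plus strand: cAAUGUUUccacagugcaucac
Mir33 hairpin, chr15:82198122-82198190, plus strand: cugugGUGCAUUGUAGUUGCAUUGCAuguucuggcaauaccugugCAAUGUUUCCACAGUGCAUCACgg
The seed UGCAUUG was carried by 1 of 1679 mature miRNAs in the RefSeq table, miR-33-5p itself, and the seed AAUGUUU likewise by 1 of 1679, miR-33-3p. Mir33 was the only gene of the RefSeq list that overlapped Srebf2 (ENSMUSG00000022463, chromosome 15), and no listed gene overlapped Abca1 (ENSMUSG00000015243, chromosome 4) or Abcg1 (ENSMUSG00000024030, chromosome 17).

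Levels are given in CPM, counts relative to library size after scaling by the trimmed mean of M values (TMM). On this scale miR-33-5p was highest in the livers of HFD plus HQHF mice and near the control level in HFD mice. HFD plus HQHF mice 1, 2 and 4 had 38.2, 36.6 and 33.3 CPM (301, 266 and 259 reads). HFD mice 1 to 4 had 14.6, 20.6, 9.16 and 20.2 CPM (221, 220, 129 and 329 reads), and control mice 1, 3 and 4 had 15.4, 14.7 and 17.0 CPM (118, 101 and 133 reads). All 3 HFD plus HQHF values lay above all HFD and control values, while the HFD values spread on both sides of the control range.

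The means were 36.1 ± 2.52 CPM in HFD plus HQHF mice (SD, n = 3), 16.1 ± 5.39 CPM in HFD mice (n = 4) and 15.7 ± 1.20 CPM in control mice (n = 3). In edgeR's quasi-likelihood test with Benjamini-Hochberg adjustment over 406 miRNAs, the log2 fold change of HFD plus HQHF against HFD was 1.16 ± 0.27 (SE, adjusted p = 0.0218). Of all miRNAs tested 10.6% were called higher in that comparison, at an adjusted p under 0.05, and in 38.2% the groups did not overlap. The log2 fold change of HFD plus HQHF against control was 1.20 ± 0.29, which did not pass in edgeR's test after adjustment (adjusted p = 0.0743), with 0.739% of miRNAs called higher; these groups did not overlap either, which was so for 44.6% of miRNAs. HFD against control gave 0.04 ± 0.27 (adjusted p = 0.923), where 16.3% of miRNAs were called and 31.3% did not overlap. These p-values measure the spread between mice.

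The higher miR-33-5p level in HFD plus HQHF than in HFD livers kept its direction in all 20 other settings and was called in 10 of them. It lost its call without HFD 1 (adjusted p = 0.0661), HFD plus HQHF 1 (0.0803), HFD plus HQHF 2 (0.0736) or HFD plus HQHF 4 (0.0621). With all 12 mice it was 0.84 (adjusted p = 0.639, 0% of miRNAs called higher, against 71 at an unadjusted p under 0.05 in either direction). Scaled by library totals it was 0.58 (adjusted p = 0.154, 1.72% called higher), and these groups overlapped. HFD 4 then had 32.5 CPM, above HFD plus HQHF 2 (30.5 CPM) and HFD plus HQHF 4 (28.7 CPM). The means were then 31.3 CPM in HFD plus HQHF, 21.0 CPM in HFD and 13.0 CPM in control mice. HFD against control gave 0.69 in edgeR's test with library totals (adjusted p = 0.101), where 32.8% of miRNAs were called higher. In HFD plus HQHF against HFD library totals moved the median of all miRNAs to -0.72, against -0.13 with TMM. Relative to the median of each scaling, miR-33-5p stood 1.29 higher. A change of scaling moves all miRNAs of a comparison by nearly the same amount. That agreement was thus built in, and it does not bear on the lost call.

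miR-33-3p, the other arm of the hairpin, had far fewer reads and passed no test. Its levels were 3.43, 3.72 and 2.19 CPM in HFD plus HQHF mice 1, 2 and 4 (27, 27 and 17 reads). They were 1.79, 2.62, 2.06 and 2.21 CPM in HFD mice 1 to 4 (27, 28, 29 and 36 reads) and 3.0, 2.62 and 2.18 CPM in control mice 1, 3 and 4 (23, 18 and 17 reads). Every pair of groups overlapped. The log2 fold change was 0.52 ± 0.27 for HFD plus HQHF against HFD (adjusted p = 0.169), 0.26 ± 0.29 for HFD plus HQHF against control (0.610) and -0.26 ± 0.27 for HFD against control (0.474).

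**Figure D1:**
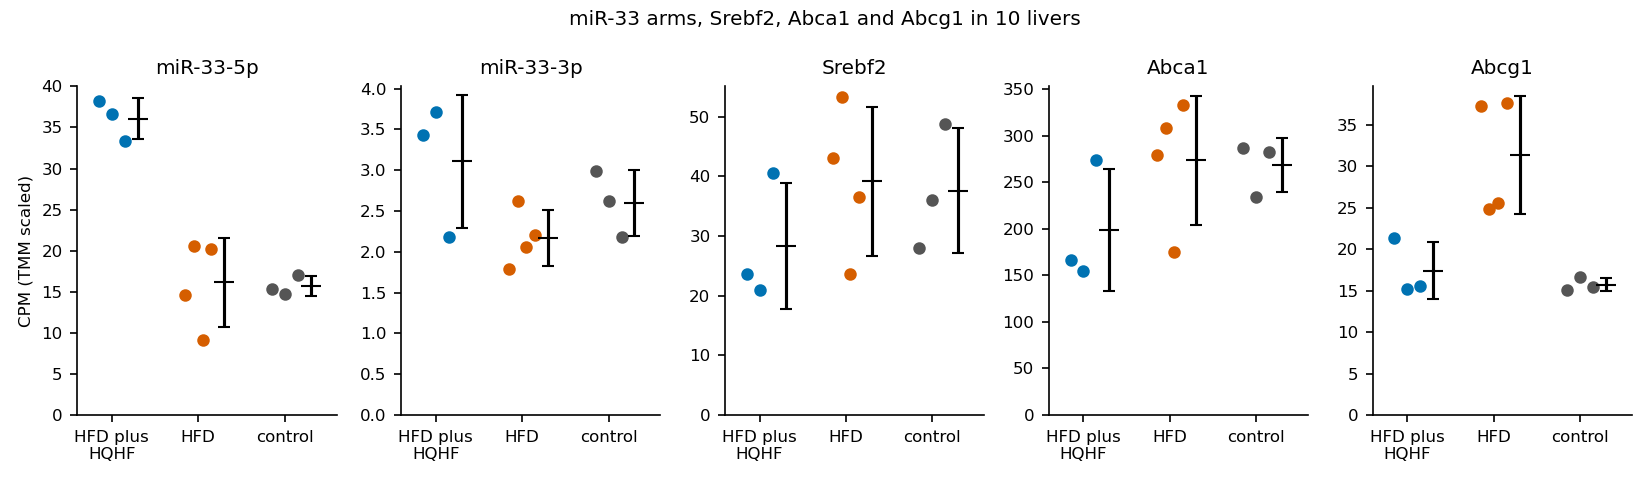
Levels in CPM (TMM scaled, linear axes from 0) of the 5 members, with 1 point per mouse and bars for the mean ± SD in HFD plus HQHF (n = 3), HFD (n = 4) and control mice (n = 3). The HFD plus HQHF points for miR-33-5p lie between 33.3 and 38.2 CPM, above the other groups, and the HFD points for Abcg1 lie between 24.9 and 37.7 CPM, above the other groups.

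Of the reads of both arms, most came from the 5p arm in the 10 livers. The 5p share was 91.8% (95% Wilson interval 88.3 to 94.3), 90.8% (86.9 to 93.6) and 93.8% (90.4 to 96.1) in HFD plus HQHF mice 1, 2 and 4. It was 89.1% (84.6 to 92.4), 88.7% (84.2 to 92.1), 81.6% (74.9 to 86.9) and 90.1% (86.6 to 92.8) in HFD mice 1 to 4. Control mice 1, 3 and 4 had 83.7% (76.7 to 88.9), 84.9% (77.4 to 90.2) and 88.7% (82.6 to 92.8). The intervals cover counting error only.

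The HFD plus HQHF mice had the 3 highest shares, but their intervals overlapped those of several mice of the other groups. The means were 92.1 ± 1.56% in HFD plus HQHF, 87.4 ± 3.88% in HFD and 85.7 ± 2.6% in control mice. In two-sided exact permutation tests the difference was 4.73 percentage points for HFD plus HQHF minus HFD (p = 0.0571, the smallest these group sizes allow) and 6.39 for HFD plus HQHF minus control (p = 0.1, likewise the smallest). It was 1.66 for HFD minus control (exact p = 0.571). Adjusted over the 3 comparisons, the smallest p was 0.15. Without HFD 3 the difference was 2.81 points for HFD plus HQHF minus HFD and 3.58 for HFD minus control, and the range of HFD minus control without single mice was 0.631 to 3.58. With all 12 mice the differences were 4.09 for HFD plus HQHF minus HFD, 13.9 for HFD plus HQHF minus control and 9.83 for HFD minus control. Of the libraries left out, HFD plus HQHF 3 had a 5p share of 89.6% and control 2 one of 53.1% (interval 39.4 to 66.3, 26 of 49 reads).

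**Figure D2:**
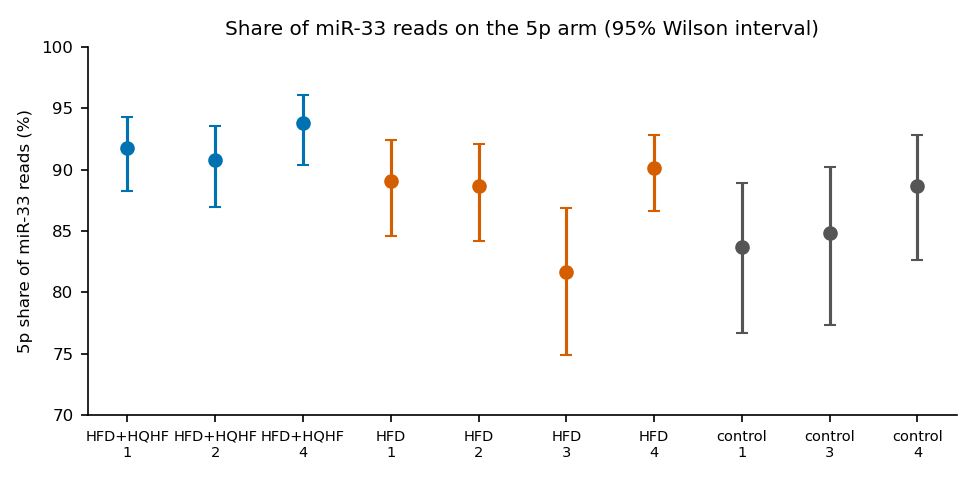
Share of miR-33 reads on the 5p arm (%, axis from 70 to 100) in each of 10 livers with its 95% Wilson interval. The 3 HFD plus HQHF points, from 90.8 to 93.8%, lie above the 4 HFD and 3 control points, with overlapping intervals.

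Srebf2, from whose intron the miRNA is made, passed no test. Its levels were 23.6, 21.0 and 40.5 CPM in HFD plus HQHF mice 1, 2 and 4. They were 43.1, 53.4, 23.6 and 36.5 CPM in HFD mice 1 to 4 and 28.0, 36.1 and 48.9 CPM in control mice 1, 3 and 4. The groups overlapped in every comparison, with means of 28.4 ± 10.6 CPM in HFD plus HQHF, 39.2 ± 12.5 CPM in HFD and 37.6 ± 10.5 CPM in control mice. The log2 fold change was -0.46 ± 0.31 for HFD plus HQHF against HFD (adjusted p = 0.306), -0.41 ± 0.33 for HFD plus HQHF against control (0.815) and 0.06 ± 0.31 for HFD against control (0.907). The point estimates of the host gene and of miR-33-5p thus had opposite signs in both comparisons with HFD plus HQHF; the difference between them was not tested, as they come from different libraries.

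Abca1, the exporter to lipid-poor apolipoprotein A-I, also passed no test. It had 166.9, 154.2 and 273.6 CPM in HFD plus HQHF mice 1, 2 and 4, against 279.0, 307.7, 175.1 and 332.5 CPM in HFD mice 1 to 4. Control mice 1, 3 and 4 had 286.9, 234.6 and 282.3 CPM. HFD plus HQHF mice 1 and 2 and HFD mouse 3 were the 3 lowest livers for both Abca1 and Srebf2. The means were 198 ± 65.5 CPM in HFD plus HQHF, 274 ± 69.2 CPM in HFD and 268 ± 29.0 CPM in control mice. The log2 fold change was -0.46 ± 0.26 for HFD plus HQHF against HFD (adjusted p = 0.223), -0.43 ± 0.28 for HFD plus HQHF against control (0.756) and 0.03 ± 0.26 for HFD against control (0.943).

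The calls on Abca1 and Srebf2 depended on the scaling. With library totals Abca1 was 0.62 in HFD against control (adjusted p = 0.0447) and -1.0 in HFD plus HQHF against HFD (0.00637), while Srebf2 was 0.65 (0.0534) and -1.0 (0.0105). The median over all genes was then 0.66 and -0.62 in those comparisons, against 0.06 and -0.07 with TMM. Relative to the median, Abca1 and Srebf2 stood at -0.04 and -0.01 in HFD against control with library totals, against -0.03 and -0.00 with TMM. In HFD plus HQHF against HFD both stood at -0.39 with library totals and at -0.40 with TMM. A change of scaling moves all genes of a comparison by nearly the same amount, so this agreement was built in.

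The promoters of Srebf2 and Abca1 are shown because these genes had their lowest levels in the same livers. That pattern was picked after the values were seen and was not tested. The promoter table held no entry for Abcg1. The windows run from 250 bases before to 50 bases after the gene start (RefSeq, GRCm38.p6), and capitals mark matches to the motifs searched on both strands.
Srebf2 promoter, chr15:82147019-82147318, plus strand: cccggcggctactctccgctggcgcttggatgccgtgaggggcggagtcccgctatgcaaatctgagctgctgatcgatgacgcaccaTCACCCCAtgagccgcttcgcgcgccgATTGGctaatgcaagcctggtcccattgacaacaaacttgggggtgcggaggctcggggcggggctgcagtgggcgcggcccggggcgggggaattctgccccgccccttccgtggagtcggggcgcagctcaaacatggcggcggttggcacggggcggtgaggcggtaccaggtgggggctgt
Abca1 promoter, chr4:53159846-53160145, minus strand: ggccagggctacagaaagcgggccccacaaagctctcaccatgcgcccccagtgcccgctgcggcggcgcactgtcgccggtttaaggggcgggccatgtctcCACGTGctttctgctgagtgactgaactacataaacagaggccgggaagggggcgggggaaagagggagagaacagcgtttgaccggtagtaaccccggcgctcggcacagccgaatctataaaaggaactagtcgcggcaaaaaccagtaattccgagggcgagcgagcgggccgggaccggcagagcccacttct
The sterol regulatory element core TCACCCCA, a site that SREBP can bind, starts 162 bases before the Srebf2 start and is in 1.56% of 32851 promoters of the table. The CCAAT box (CCAAT, here as ATTGG on the strand shown) starts 135 bases before the Srebf2 start, and 37.4% of promoters hold it. In the Abca1 window the E-box CACGTG starts 147 bases before the gene start, with 7.15% of promoters holding it. The windows had none of these motifs in common. The Abca1 window held neither the sterol regulatory element core nor the CCAAT box, and the Srebf2 window held no E-box. The motifs were chosen with these promoters known, none of the matches overlaps another, and a match is not evidence of binding in these livers.

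Abcg1, the exporter to HDL, was the member with a called change on the high-fat diet, and it was at about the control level in HFD plus HQHF mice. HFD plus HQHF mice 1, 2 and 4 had 21.4, 15.3 and 15.6 CPM, HFD mice 1 to 4 had 37.3, 24.9, 25.6 and 37.7 CPM, and control mice 1, 3 and 4 had 15.1, 16.6 and 15.5 CPM. Every HFD liver was above every liver of the other groups. The means were 17.4 ± 3.46 CPM in HFD plus HQHF, 31.4 ± 7.11 CPM in HFD and 15.7 ± 0.787 CPM in control mice.

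Abcg1 rose in HFD against control with a log2 fold change of 1.00 ± 0.19 (adjusted p = 0.00724) and fell in HFD plus HQHF against HFD, by 0.85 ± 0.19 on the log2 scale (adjusted p = 0.0164). Of 13832 genes tested, 16.3% were called higher in HFD against control and 11.1% lower in HFD plus HQHF against HFD. The groups did not overlap for 36.7% of genes in HFD against control and for 30.7% in HFD plus HQHF against HFD. HFD plus HQHF against control gave 0.15 ± 0.20 (adjusted p = 0.902) with overlapping groups, a comparison in which no gene was called by edgeR (0% of 13832; for 15.1% the groups did not overlap), 1008 had an unadjusted p under 0.05 and DESeq2 called 72. The rise with the diet was called without any single mouse (adjusted p from 0.00474 to 0.0326), but the fall was not called without HFD plus HQHF 2 (0.0727) or HFD plus HQHF 4 (0.0527). With all 12 mice neither was called (0.58, adjusted p = 0.505, and -0.44, adjusted p = 0.702), in fits that called 0.0503% of genes higher in HFD against control and 0.00718% lower in HFD plus HQHF against HFD. Those fits hold the left-out libraries. With all 12 scaled by TMM, Abcg1 was at 40.2 CPM in HFD plus HQHF 3 and 37.8 CPM in control 2. HFD mice then had 27.1 to 39.8 CPM. Scaled by library totals, the left-out libraries had 57.7 CPM (HFD plus HQHF 3) and 58.1 CPM (control 2).

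**Figure D3:**
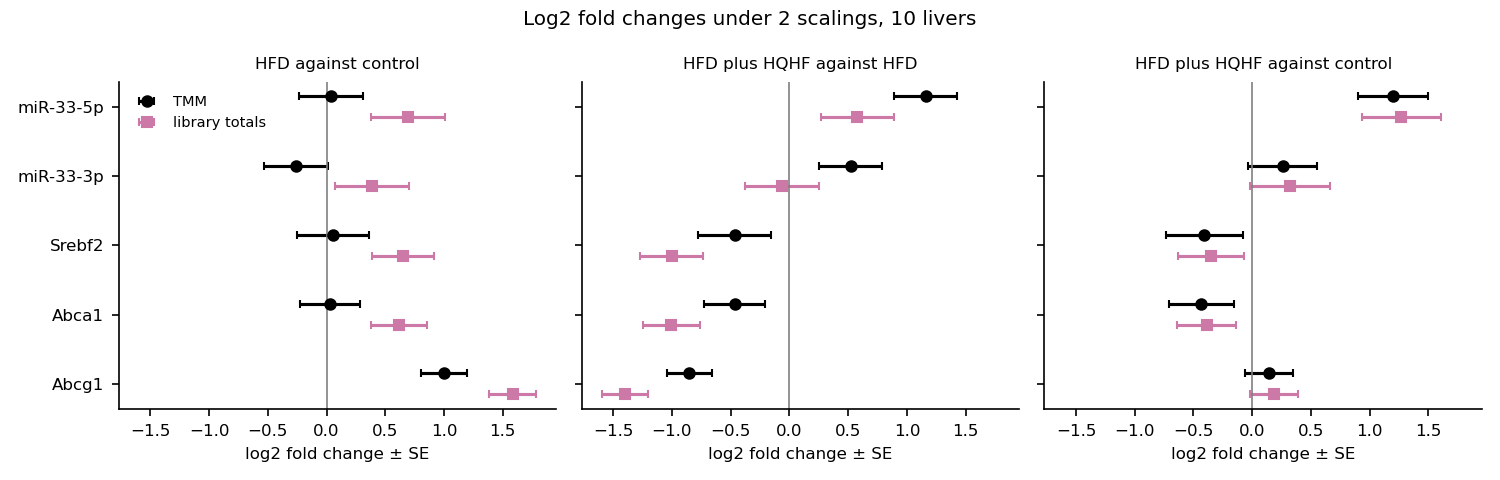
Log2 fold changes ± SE of the 5 members in 3 comparisons over 10 livers, with TMM (black circles) and with library totals (pink squares). With either scaling Abcg1 is highest among the members in HFD against control and lowest in HFD plus HQHF against HFD, and miR-33-5p is highest in both comparisons with HFD plus HQHF.

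Marker genes of recruited macrophages rose and fell in the same comparisons as Abcg1. Of all genes 16.3% rose and 9.89% fell in HFD against control, and 7.85% rose and 11.1% fell in HFD plus HQHF against HFD. In HFD against control 11 of 12 recruited macrophage genes rose and none fell. In HFD plus HQHF against HFD 10 of these 12 fell and none rose. Their summed share of counts was 0.0077 to 0.0101% in HFD plus HQHF mice, 0.0367 to 0.104% in HFD mice and 0.00667 to 0.0103% in control mice, and none of the 12 was at 0 in any library. With all 12 mice 2 of the 12 rose in HFD against control, where 0.0503% of all genes rose. In HFD plus HQHF against HFD 1 of the 12 then fell, where 0.00718% of all genes fell. Of 8 stellate cell genes, 6 rose in HFD against control and 5 fell in HFD plus HQHF against HFD. Of 9 Kupffer cell genes, which mark resident macrophages, 4 fell in HFD against control and 4 rose in HFD plus HQHF against HFD. These counts depended on the scaling. With library totals 3 rose and none fell in HFD against control, where 50.9% of all genes rose. In HFD plus HQHF against HFD 1 then rose and 1 fell, where 0.99% of all genes rose and 47% fell. The summed Kupffer share of counts was 0.0290 to 0.0445% in HFD plus HQHF, 0.0309 to 0.0475% in HFD and 0.0247 to 0.0332% in control mice. The part of these cells in the Abcg1 result was not tested, and in bulk liver more cells of a type and more RNA per cell cannot be told apart. Beside miR-33-5p, hepatocyte miRNAs took 55.5 to 57.4% of small RNA counts in HFD plus HQHF mice, 37.2 to 53.1% in HFD mice and 52.1 to 60.4% in control mice, and their part in its level was likewise not tested.

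The genes whose levels ran closest to each member over the 10 livers are given as a description, by Pearson's r of log2 CPM. Among 11655 genes Abcg1 was closest to Sh3bp1 (r = 0.98), to Asah1 (0.98), which encodes acid ceramidase, and to Adcy7 (0.98), which encodes an adenylyl cyclase. Adcy7 had a mean of 3.57 CPM in HFD plus HQHF, 9.77 CPM in HFD and 3.22 CPM in control mice. Srebf2 was closest to Nectin1 (0.97), Dhx37 (0.97) and Atp13a1 (0.96), and Abca1 to Septin9 (0.97), Prkdc (0.97) and Dag1 (0.96). Among 221 miRNAs miR-33-5p was closest to let-7f-1-3p (0.89), miR-16-1-3p (0.85) and miR-194-2-3p (0.84). The mean of miR-194-2-3p was 29.3 CPM in HFD plus HQHF, 15.9 CPM in HFD and 16.9 CPM in control mice.

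Across mice, no relation between the miR-33 arms and the genes passed a permutation test after adjustment over 7 relations. Over 10 mice, Pearson's r of log2 CPM of miR-33-5p was -0.18 with Srebf2 (permutation p = 0.620, adjusted p = 0.620; Spearman's rho = -0.20, p = 0.584), -0.25 with Abca1 (p = 0.467, adjusted p = 0.545; rho = -0.20, p = 0.584) and -0.29 with Abcg1 (p = 0.407, adjusted p = 0.545; rho = -0.28, p = 0.425). The miR-33-5p values fell into 2 clusters, the 3 HFD plus HQHF mice and the other mice, so these coefficients mix the difference between groups with the spread inside them. Taken as deviations from the group means, r was 0.54 with Srebf2 (exact permutation p = 0.203), 0.63 with Abca1 (p = 0.128) and 0.29 with Abcg1 (p = 0.635). The sign was thus positive within groups and negative over all mice, and neither passed. The positive sign within groups depended on HFD 3. Without that mouse r within groups was -0.024 with Srebf2, 0.0065 with Abca1 and -0.24 with Abcg1. Without HFD plus HQHF 1 and HFD 3, the mice farthest from the median of miR-33-5p, r was -0.39, -0.52 and -0.30.

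miR-33-5p and miR-33-3p had r = 0.61 (permutation p = 0.0659, adjusted p = 0.206; rho = 0.65, p = 0.05), which was 0.42 without those mice and 0.32 within groups (exact permutation p = 0.361). miR-33-3p had r = -0.59 with Srebf2 (permutation p = 0.0724, adjusted p = 0.206; rho = -0.59, p = 0.0793), and without HFD plus HQHF 1 and 2, the mice farthest from its median, r was -0.12. With Abca1 it had r = -0.54 (permutation p = 0.104, adjusted p = 0.206; rho = -0.31, p = 0.388), which was 0.19 without those mice. With Abcg1 it had r = -0.52 (permutation p = 0.118, adjusted p = 0.206; rho = -0.53, p = 0.123), which was -0.57 without them.

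**Figure D4:**
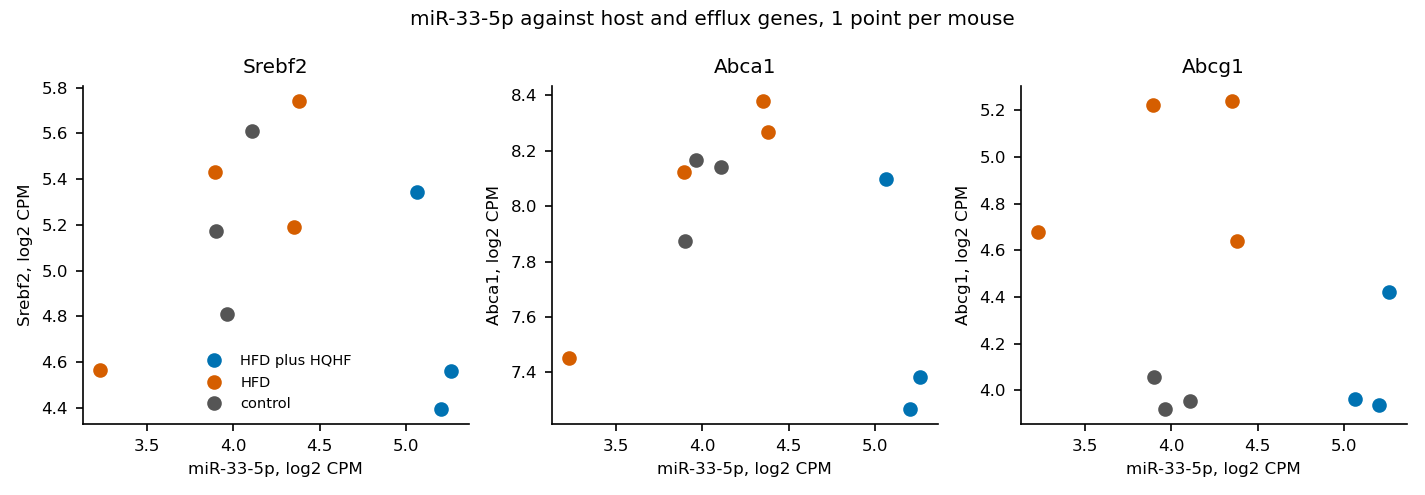
Log2 CPM of miR-33-5p (x axis) against log2 CPM of Srebf2, Abca1 and Abcg1 (y axes), 1 point per mouse for 3 HFD plus HQHF, 4 HFD and 3 control mice; the axes do not start at 0. The HFD plus HQHF points stand apart to the right, and r over all 10 points is -0.18, -0.25 and -0.29.

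Genes reported elsewhere as miR-33 targets moved in both directions. Of 17 (Abca1 and Abcg1 among them) 2 rose and 4 fell in HFD against control, and 3 rose and 1 fell in HFD plus HQHF against HFD. Of all genes 16.3% rose and 9.89% fell in HFD against control, and 7.85% rose and 11.1% fell in HFD plus HQHF against HFD. The median log2 fold change of the list was -0.23 and -0.15, beside 0.06 and -0.07 for all genes. In the third comparison, HFD plus HQHF against control, the median was -0.31 beside 0.02, and none of the 17 was called, as for every list here.

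Among the genes of that list with the smallest p were 3 of glucose metabolism. G6pc, the catalytic subunit of glucose-6-phosphatase that releases glucose from the liver, had 355 to 463 CPM in HFD plus HQHF, 122 to 187 CPM in HFD and 596 to 760 CPM in control mice. It fell by 2.06 ± 0.21 in HFD against control (adjusted p = 0.000646) and rose by 1.41 ± 0.21 in HFD plus HQHF against HFD (0.00387). Irs2, an adaptor of the insulin receptor, fell by 1.12 ± 0.22 (0.00724) and rose by 0.70 ± 0.22 (0.0455). Pck1, the enzyme that commits to gluconeogenesis, rose by 1.15 ± 0.34 in HFD plus HQHF against HFD (0.0381). Crot, which helps shorten fatty acids in peroxisomes, fell by 0.99 ± 0.28 in HFD against control (0.0253). The other member that rose in HFD against control, named after its values were seen, was Osbpl6, an oxysterol-binding protein family member with 0.0782 to 0.258 CPM in HFD plus HQHF, 0.331 to 3.29 CPM in HFD and 0.0952 to 0.131 CPM in control mice (log2 fold change 3.31, adjusted p = 0.0310), where HFD 3 was the highest and the median of HFD mice was 0.431 CPM, and the other that fell was Pck1 (-1.12, adjusted p = 0.0336). The Osbpl6 value went down to 1.83 without single mice, its call was lost without control 1, 3 or 4, and with all 12 mice it was 0.81 (adjusted p = 0.870). Of these genes G6pc kept its call in both comparisons and Irs2 in HFD against control without any single mouse, while Irs2 in HFD plus HQHF against HFD was called in 1 of 10 such fits (lowest value 0.38) and Pck1 in 3 of 10 in either comparison.

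Called genes of the LXR axis moved up on the diet and in both directions with the formula. Of 15 genes of the LXR axis (Abca1 and Abcg1 among them) 4 rose and none fell in HFD against control. In HFD plus HQHF against HFD 2 rose and 3 fell. Abcg1, reported above, is counted in the 4 and in the 3. The medians were -0.05 and -0.10. Of all genes 16.3% rose in HFD against control, and 7.85% rose and 11.1% fell in HFD plus HQHF against HFD. Lpl, which frees fatty acids from lipoproteins, had 12.0 to 13.3 CPM in HFD plus HQHF, 42.4 to 209 CPM in HFD and 12.7 to 21.2 CPM in control mice. It rose by 2.84 ± 0.48 in HFD against control (adjusted p = 0.00517) and fell by 3.14 ± 0.49 in HFD plus HQHF against HFD (0.00550). With all 12 mice both Lpl values turned round and lost their calls (-2.81, adjusted p = 0.619, and 2.87, adjusted p = 0.689); the left-out libraries had 4971 CPM in HFD plus HQHF 3 and 5105 CPM in control 2 by library totals. Arl4c, a small GTPase, rose by 1.58 ± 0.27 (0.00477) and fell by 1.26 ± 0.27 (0.0131). Srebf1, the lipogenic relative of Srebf2, rose by 2.75 ± 0.73 in HFD against control (0.0251), a call lost without control 1, 3 or 4. Nr1h3, which encodes LXR alpha, rose by 0.64 ± 0.17 in HFD plus HQHF against HFD (0.0281), and the other gene that rose there, named after its values were seen, was the sterol exporter Abcg8 (0.71, adjusted p = 0.0349). In HFD plus HQHF against control Pltp had -1.11 ± 0.35 (adjusted p = 0.621), Abcg8 0.62 ± 0.22 (0.635), Scd1 -3.0 ± 1.15 (0.643) and Abcg5 0.53 ± 0.22 (0.666).

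**Figure D5:**
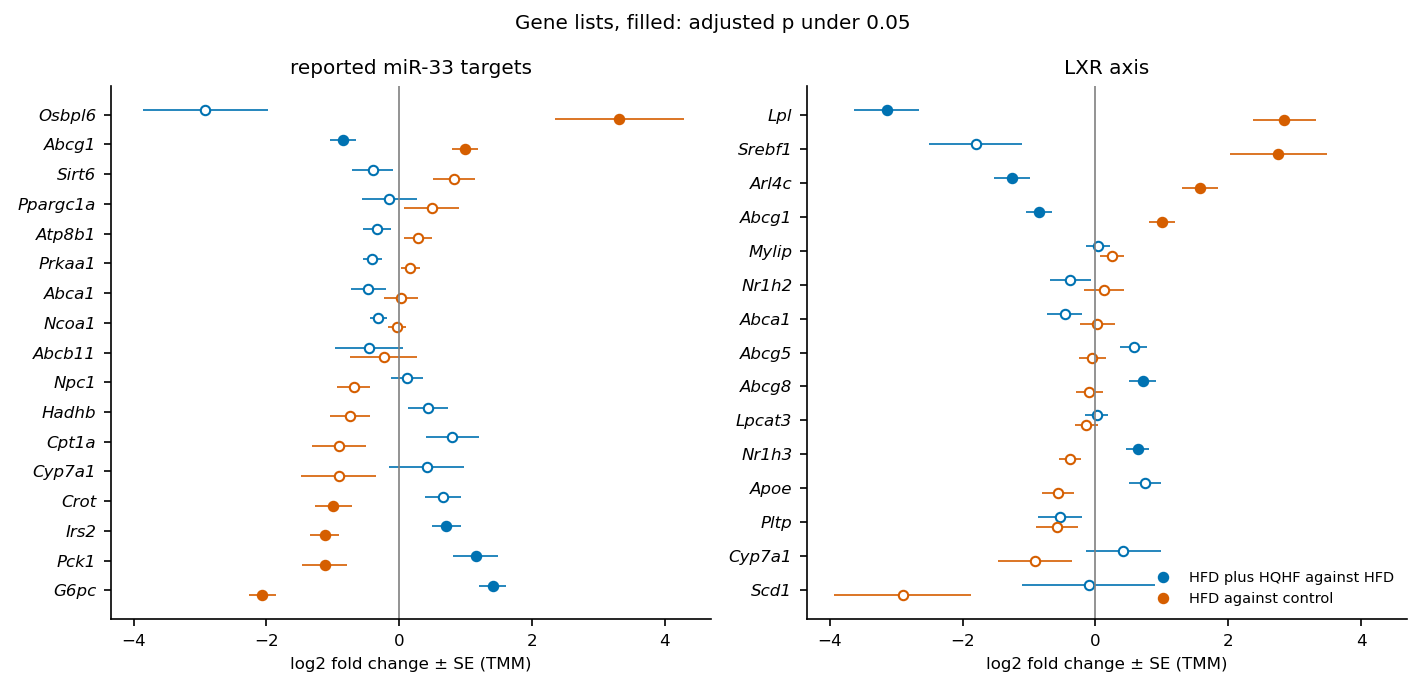
Log2 fold changes ± SE (TMM, 10 livers) of 17 reported miR-33 targets and 15 genes of the LXR axis in HFD plus HQHF against HFD (blue) and HFD against control (orange), filled where the adjusted p was under 0.05. Abcg1, Lpl and Arl4c are filled to the right in orange and to the left in blue, and G6pc, Irs2 and Pck1 the other way round.

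The targets of SREBP-2 with a call in the comparisons with HFD mice were Hsd17b7 and Ebp. Of 23 cholesterol synthesis and uptake genes none rose and 2 fell in HFD against control, and 2 rose and none fell in HFD plus HQHF against HFD, with medians of -0.07 and -0.38. The shares over all genes were 16.3% higher and 9.89% lower in HFD against control. They were 7.85% higher and 11.1% lower in HFD plus HQHF against HFD. In the directions that had calls, 2 of 23 was near the share of all genes. The called genes were the same pair of late sterol synthesis enzymes. Hsd17b7 fell by 1.53 ± 0.23 in HFD against control (adjusted p = 0.00323) and rose by 1.09 ± 0.23 in HFD plus HQHF against HFD (0.0126). Ebp fell by 0.99 ± 0.22 (0.0119) and rose by 0.84 ± 0.22 (0.0280). Mvk, an enzyme of the mevalonate pathway, did not pass in HFD against control (0.71 ± 0.28, adjusted p = 0.0753), nor did Lss, which forms lanosterol, in HFD plus HQHF against HFD (-0.63 ± 0.31, adjusted p = 0.166).

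A list of 6 genes holds those that process SREBP-2 and also Srebf1, the relative of Srebf2. In HFD against control 1 rose, Srebf1, and 1 fell, where 16.3% of all genes rose and 9.89% fell. The gene that fell was Insig2, which holds SREBP in the endoplasmic reticulum, by 1.64 ± 0.33 (adjusted p = 0.00781). In HFD plus HQHF against HFD Insig2 rose by 1.04 ± 0.32 (0.0469) and Scap, the escort protein of SREBP, by 0.73 ± 0.22 (0.0436). Those calls held in 1 and 2 of 10 fits without a single mouse, with a lowest value of 0.51 for Insig2. None of the 6 fell there, where 7.85% of all genes rose and 11.1% fell.

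The last list holds genes that build and remodel HDL, which takes up the cholesterol that ABCA1 and ABCG1 export. Of 9 genes none rose and 6 fell in HFD against control, and 5 rose and none fell in HFD plus HQHF against HFD, with medians of -0.95 and 0.89, where 9.89% of all genes fell in HFD against control and 7.85% rose in HFD plus HQHF against HFD. Apoa2, an HDL protein, fell by 1.31 ± 0.25 in HFD against control (adjusted p = 0.00665) and rose by 1.08 ± 0.25 in HFD plus HQHF against HFD (0.0169). Pon1, an HDL-bound esterase, fell by 1.11 ± 0.22 (0.00723) and rose by 1.02 ± 0.22 (0.0132). Apom, the HDL carrier of sphingosine-1-phosphate, fell by 1.00 ± 0.21 (0.00866) and rose by 1.06 ± 0.21 (0.00975). Lcat, which esterifies HDL cholesterol, fell by 0.73 ± 0.20 (0.0251) and rose by 0.70 ± 0.20 (0.0365). Apoa2 is also on the list of hepatocyte markers. Of those 10 markers, Apoa2 included, 4 fell in HFD against control and 4 rose in HFD plus HQHF against HFD. The part of hepatocyte RNA in the HDL values was not tested.

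The remaining genes named by rank in HFD plus HQHF against control all missed the threshold in edgeR's test. Among reported miR-33 targets G6pc had -0.65 ± 0.22 (adjusted p = 0.621), Ncoa1 -0.35 ± 0.14 (0.643), Npc1 -0.57 ± 0.26 (0.682) and Irs2 -0.41 ± 0.24 (0.725). Among SREBP-2 targets Hmgcs1 had -0.74 ± 0.34 (adjusted p = 0.682), Mvk 0.61 ± 0.29 (0.691), Dhcr7 -0.70 ± 0.36 (0.705) and Cyp51 -1.24 ± 0.63 (0.709), and the medians of the SREBP-2 targets and of all genes were -0.42 and 0.02. Insig2 had -0.60 ± 0.35 (adjusted p = 0.741) and Mbtps2, a protease that cleaves SREBP, -0.33 ± 0.17 (0.704). Among HDL genes, after Pltp, Scarb1 had 0.22 ± 0.22 (adjusted p = 0.853), Apoa2 -0.22 ± 0.27 (0.879) and Lipg -0.26 ± 0.44 (0.922).

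Many calls on list genes were lost in fits without a single mouse, some of them also when that mouse was outside the comparison. Over the 5 lists, 18 genes were called in HFD against control and 11 of them without any single mouse (Abcg1, Apoa2, Apom, Arl4c, Ebp, G6pc, Hsd17b7, Insig2, Irs2, Lpl and Pon1). There were 17 called in HFD plus HQHF against HFD, and 4 of them without any single mouse (Apom, G6pc, Hsd17b7 and Lpl). With all 12 mice none of the 5 lists had a called gene in any comparison by edgeR, which over all genes called 7 in HFD against control, 1 in HFD plus HQHF against HFD and 0 in HFD plus HQHF against control, with 1855, 1659 and 660 at an unadjusted p under 0.05. List counts also depended on the scaling. With library totals 50.9% of all genes were called higher and 1.11% lower in HFD against control, and 0.99% higher and 47% lower in HFD plus HQHF against HFD. The reported miR-33 targets then had 7 higher and 1 lower in HFD against control, and 1 higher and 7 lower in HFD plus HQHF against HFD. The LXR axis had 8 higher and none lower, and none higher and 9 lower. The SREBP-2 targets had 3 higher and 1 lower, and none higher and 8 lower. The HDL genes had 1 higher and 1 lower, and 1 higher and 2 lower.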

How the data were processed

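Small and long RNA libraries were made from liver RNA extracted with TRIzol, per the labels. The authors deposited counts of whole reads for genes and for mature miRNAs, with no normalization, and the submitters' processing notes name HISAT2, RSEM and GRCm39. For versions, the counting step and the use of strand, the sources used here give nothing. No pair of libraries was identical, and 0 columns of other samples were present.

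Libraries were joined by mouse through their titles and batch codes; each mouse has its own code, so no batch term could be fitted. Counts were tested in R 4.3.3 with edgeR 4.0.16 (filterByExpr, TMM, estimateDisp, robust glmQLFit, glmQLFTest) in 1 model of 3 groups per assay, over 13832 genes and 406 miRNAs in 10 mice. TMM factors lay between 0.763 and 1.42 (long RNA) and between 0.707 and 1.61 (small RNA). The SE was the log2 fold change divided by the square root of F. Calls used a Benjamini-Hochberg adjusted p under 0.05, and the test was tested on simulated data. Relations used log2 CPM (prior count 2) and 100000 permutations, or all 864 reorderings within groups. DESeq2 1.42.0 and other settings were alternatives.

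Named genes were the 5 members, the 4 smallest p of each list per comparison and the 3 closest features per member; 1 gene that this rule names is not reported here. The members, lists, motifs and left-out libraries were chosen with earlier results of these data known.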

Additional observations from a re-analysis of the deposited data

Results flagged for a closer look

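Among 15 groups of 4 mice (5 members in 3 groups), control 2 stood far from the other control mice for 2 members. With all 12 libraries scaled together by TMM, its miR-33-5p level was 1.03 CPM, the lowest of the 4, with a gap to the next mouse of 0.892 of the group's range. Its Abcg1 level was 37.8 CPM, the highest of the 4, with a gap of 0.954 of the range. The critical value for 4 samples is 0.829, and chance flags about 1 in 20 groups. This library was left out of the comparisons above.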

How the results depend on the processing

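Of the 5 members, the number called moved as follows. In HFD against control it was 1 of the 3 genes, 0 with all 12 libraries (also with library totals) and 2 with library totals in 10. In HFD plus HQHF against HFD it was 1 of the 3 genes, 0 with all 12 libraries (also with library totals), 3 with library totals in 10 and 0 to 1 without single mice. For miRNAs in HFD plus HQHF against HFD it was 1 of the 2 arms, 0 with all 12 libraries, library totals, both together, library totals without miR-122-5p, no filter or only the 2 groups compared, and 0 to 1 without single mice. In HFD plus HQHF against control it was 0, 1 with DESeq2 (miR-33-5p, adjusted p = 0.00683) or only the 2 groups compared (0.00244), and 0 to 1 without single mice. Relations passing after adjustment were 0, and 3 with all 12 libraries, which rest on control 2 and HFD plus HQHF 3.

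Reversed values were all uncalled with TMM in 10 mice. In HFD against control Abca1 was -0.15 (all 12), -0.0047 (DESeq2, RLE), -0.0029 (2 groups), -0.017 (block) and -0.12 to 0.20 without single mice. There miR-33-3p was 0.044 (all 12), 0.39 (library totals), 0.13 (totals without miR-122-5p) and 0.41 (all 12, totals). miR-33-5p was -0.12 (block) and -0.10 to 0.30 without single mice, and Srebf2 -0.13 to 0.28. In HFD plus HQHF against HFD miR-33-3p was -0.062 (totals) and -0.25 (all 12, totals), and in HFD plus HQHF against control Abcg1 was -0.030 to 0.23 without single mice. Pearson's r of miR-33-5p was 0.74 (all 12), 0.54 (within groups) and -0.54 to 0.076 (single mice) with Srebf2, 0.63 (within groups) and -0.67 to 0.0088 (single mice) with Abca1, and 0.10 (totals) and 0.29 (within groups) with Abcg1. That of miR-33-3p was 0.56 with Srebf2 (all 12), and 0.042 with Abca1 and 0.41 with Abcg1 (totals). The cause was not tested.

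Over all features, edgeR called 3625 genes and 66 miRNAs in HFD against control, 2618 and 81 in HFD plus HQHF against HFD, and 0 and 5 in HFD plus HQHF against control. DESeq2 called 72 genes and 55 miRNAs in the last of these; library totals called 7195 and 6633 genes and 141 and 147 miRNAs in the first pair, and DESeq2 116 and 128 miRNAs. In the same order, all 12 mice gave 7, 1 and 0 genes and 3, 2 and 0 miRNAs, no filter 26, 25 and 0 miRNAs, and only the 2 groups compared 19, 40 and 112 miRNAs. Deviations of same-numbered mice from their group means had correlations of -0.05 to 0.12 in long RNA and -0.38 to 0.29 in small RNA. These few pairs gave no clear sign of a pairing by number but cannot exclude it. With the replicate number as a block the counts were 2840, 1719 and 0 genes and 37, 55 and 0 miRNAs, and miR-33-5p was 1.07 in HFD plus HQHF against HFD (adjusted p = 0.0447).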
